A study of Homo sapiens with 12 samples.

Results

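MYC and 49 further genes, 50 in all, were followed in BT474 cells along the acquisition of lapatinib resistance. They are 5 genes of the MYC network, 41 genes of ribosome biogenesis and 4 enzymes of polyamine and nucleotide synthesis. The genes were matched by name from a list drawn up with earlier results of these data known, and all 50 were found among the 26485 genes of the deposited table. BT474 is an established human breast cancer line with amplified HER2, and lapatinib inhibits the kinases HER2 and EGFR. RNA-seq was available for 12 libraries, 3 in each of 4 groups of these cells. Control cells were taken at day 0, drug-tolerant persister cells (DTP) at day 9, drug-tolerant expanding persister cells (DTEP) at month 6 and long-term resistant cells (LR) at month 9 of exposure to 1 µM lapatinib. The labels carry the same drug entry for the Control libraries, which were read as untreated because they are titled as Control at day 0. The 3 libraries of a group came from parallel plates that the study also describes as technical replicates, so that n counts libraries, and p-values measure the spread between these libraries and not between independent derivations of resistance.

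MYC is a transcription factor that binds DNA as a pair with MAX at a short sequence called the E-box, and the MXD and MXI1 proteins compete with it for MAX and repress the same sites. Among the best known targets of MYC are the genes that make ribosomes. RNA polymerase I copies the ribosomal RNA precursor in the nucleolus, small nucleolar ribonucleoproteins (snoRNPs) modify it, and separate sets of assembly factors then build the small and the large ribosomal subunit. MYC also drives polyamine and nucleotide synthesis, which growing cells need along with new ribosomes.

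All 50 genes passed the filter of a normalised read count of at least 1 in at least 3 libraries, as did 13794 genes in total. The libraries held 16383363 to 25030482 reads assigned to genes, and 1 read was worth between 0.0412 and 0.0576 normalised read counts. DTEP replicate 3 stood apart from the other DTEP libraries. On the log2 scale it lay nearer to the LR mean than to the mean of DTEP replicates 1 and 2 in 48 of the 50 genes (96%), against 73.3% of all genes tested. Its label was kept as deposited, and whether it was labelled or harvested like the other two was not tested. The DTEP results are therefore also given without it. In addition, the DTP libraries and DTEP replicates 1 and 2 had more signal on short and less on long transcripts. The median log2 change of DTP against Control was taken in 5 equal groups of genes ordered by transcript length. It ran from 0.38 in the shortest group through 0.22, -0.01 and -0.29 to -0.68 in the longest. For LR relative to Control the same 5 medians lay between -0.06 and -0.00. Results are therefore also given after the trend with transcript length was removed from each library. In bulk RNA, fewer cells expressing a gene and less RNA per cell cannot be told apart. All 6 luminal epithelial markers had values of at least 1, and their summed counts ranged from 9385 to 10117 in the Control libraries and from 12026 to 14639 in DTP. They were lower later, at 4151 to 6021 (DTEP) and 3931 to 5359 (LR). Of 6 fibroblast markers 1 reached a value of 1, with sums between 51.3 and 61.7 in Control and between 48.1 and 59.3 in DTP. These sums were higher later, at 79.9 to 121 (DTEP) and 98.4 to 130.4 (LR). Of 5 leukocyte markers 1 did (sums from 0.0553 to 4.84 over all libraries, with CD3E, a defining T cell marker, at 0 in all 12), and of 3 endothelial markers 1 (sums from 0.127 to 8.85, highest in Control). The part of these marker changes in the results was not tested.

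The hexamer that MYC and MAX are known to bind, the E-box CACGTG, was searched in RefSeq promoter windows of 300 bases (250 before to 50 after the start, build GRCh38.p14). The hexamer is its own reverse complement, so that a single search covers both strands. A window was found for 42 of the 50 genes, the exceptions being MYC, NOP58, NOLC1, RRP12, RRP1B, BOP1, DDX18 and RRS1. It held the E-box in 18 of the 42 (42.9%), against 12.4% of the 10688 tested genes with a window and 8.77% of all 27305 genes with one. Counted by window, the shares were 32.7% of the 55 windows of these genes and 7.26% of all 35116 windows. Within 50 bases of the start the shares of genes were 33.3% of the 42 and 5.19% of the tested genes. By role, the E-box was present in 7 of 12 small subunit genes, 5 of 10 large subunit genes and 3 of 4 polyamine and nucleotide genes with a window, but in 1 of 6 snoRNP and scaffold genes and 1 of 6 RNA polymerase I genes. Of the other small subunit and large subunit genes with a window 37.5% and 33.3% held it, and of the ribosomal protein genes 6.45%. The stretches of 120 bases below belong to a selection of the genes described later, most with the E-box near the start. They are read 5′ to 3′ on the strand of the gene, with the E-box in capitals. DDX21, UTP20 and MRTO4 (chr10:68956557-68956676, chr12:101280015-101280134 and chr1:19251715-19251834) are on the plus strand. FBL, LYAR and ODC1 (chr19:39846350-39846469, chr4:4289992-4290111 and chr2:10447983-10448102) are on the minus strand, and ODC1 carried the hexamer at -29 and again at 6, where the first transcribed base is 1. In SRM the hexamer lay farther upstream, at -199 (chr1:11060128-11060247, minus strand). PES1 (hexamer at 14) and further genes with it near the start are not printed, and neither are PPAT (-182) and MXD4 (-238).
DDX21: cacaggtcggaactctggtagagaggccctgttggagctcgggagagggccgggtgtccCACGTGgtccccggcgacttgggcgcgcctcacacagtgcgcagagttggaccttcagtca
UTP20: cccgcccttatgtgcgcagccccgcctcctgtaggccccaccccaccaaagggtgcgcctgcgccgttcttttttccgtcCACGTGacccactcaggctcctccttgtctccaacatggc
MRTO4: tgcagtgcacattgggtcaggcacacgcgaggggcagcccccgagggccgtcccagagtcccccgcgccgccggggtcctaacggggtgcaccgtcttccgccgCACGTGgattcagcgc
FBL: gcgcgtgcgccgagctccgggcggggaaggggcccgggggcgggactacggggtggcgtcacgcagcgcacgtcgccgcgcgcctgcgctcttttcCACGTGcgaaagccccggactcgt
LYAR: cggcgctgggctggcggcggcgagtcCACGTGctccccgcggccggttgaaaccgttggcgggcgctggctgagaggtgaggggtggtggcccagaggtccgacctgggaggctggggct
ODC1: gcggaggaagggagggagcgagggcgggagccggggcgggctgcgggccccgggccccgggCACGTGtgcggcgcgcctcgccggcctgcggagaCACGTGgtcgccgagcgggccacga
SRM: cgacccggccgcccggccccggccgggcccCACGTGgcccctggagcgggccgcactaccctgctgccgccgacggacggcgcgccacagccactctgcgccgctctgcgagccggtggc
A match describes the sequence and does not show that MYC was bound there in these cells.

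Within the MYC network, MYC transcripts were highest in DTP cells, and the repressors MXD4 and MXI1 rose with them. MYC had 96.1, 97.6 and 100.1 normalised read counts in the Control libraries, 289, 269.6 and 266 in DTP, 209.6, 143 and 40.0 in DTEP and 62.0, 35.0 and 116 in LR. Every DTP library thus lay above every other library, while DTEP replicate 3 lay within the range of the LR libraries. Relative to Control, MYC rose in DTP by 1.48 on the log2 scale (SE 0.51, limma adjusted p 0.0278), and relative to DTP it fell in DTEP (-1.36, SE 0.51, limma adjusted p 0.0320). The first call was lost, at adjusted p up to 0.0753, whenever any single Control or DTP library was left out. The log2 change then lay between 1.44 and 1.501. The SE is pooled over all 4 groups, and for MYC the DTEP and LR libraries were more spread than those of Control and DTP. With the length trend removed and DTEP replicate 3 left out, the rise in DTP was 1.63 (SE 0.32, limma adjusted p 0.0011). The second call, DTEP against DTP, was lost in 4 of 12 fits that left out 1 library, at adjusted p up to 0.116. Without DTEP replicate 3, MYC was lower in DTEP than in DTP by a log2 change of -0.66 that did not pass (SE 0.36, limma adjusted p 0.116), and lower in LR than in DTEP (log2 change -1.44, SE 0.36, limma adjusted p 0.00674). With all libraries the LR against DTEP change was -0.74 (SE 0.51, limma adjusted p 0.303).

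MXI1, a repressor that takes MAX from MYC (Entrez 4601, chromosome 10, 110207605 to 110287365), had 12.9, 11.96 and 11.3 normalised read counts in Control, 32.5, 39.8 and 47.3 in DTP, 27.2, 25.2 and 32.1 in DTEP and 41.3, 30.1 and 35.5 in LR. All 9 libraries of treated cells lay above all Control libraries. Its log2 change against Control was 1.63 in DTP (SE 0.18, limma adjusted p 2.28e-05), 1.15 in DTEP (SE 0.18, limma adjusted p 0.000144) and 1.48 in LR (SE 0.18, limma adjusted p 1.66e-05). MXD4, of the same repressor family (Entrez 10608, chromosome 4, 2247432 to 2262109), had 44.98, 42.5 and 44.2 in Control, 116, 102 and 90.5 in DTP, 41.3, 38.8 and 86.2 in DTEP and 86.1, 92.1 and 84.9 in LR. DTEP replicates 1 and 2 were below the Control range and DTEP replicate 3 within the LR range. MXD4 rose by 1.20 in DTP (SE 0.24, limma adjusted p 0.00135), fell back in DTEP by -0.97 relative to DTP (SE 0.24, limma adjusted p 0.00342), and in LR stood 0.98 above Control (SE 0.24, limma adjusted p 0.00350). It rose from DTEP to LR, when DTEP replicate 3 was left out, by 1.11 (SE 0.12, limma adjusted p 6.5e-05).

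MAX, the partner of MYC and of its repressors, had 72.0, 76.1 and 78.1 normalised read counts in Control, 108, 117 and 107 in DTP, 83.6, 61.5 and 68.1 in DTEP and 82.0, 95.4 and 74.7 in LR. It was higher in DTP than in Control by 0.55 (SE 0.14, limma adjusted p 0.00555), or by 0.30 with the length trend removed (limma adjusted p 0.0665). MXD1, which alone of the 5 fell in DTP, had 47.0, 50.01 and 42.2 in Control, 27.1, 34.7 and 40.4 in DTP, 20.8, 23.1 and 27.4 in DTEP and 35.7, 32.9 and 28.8 in LR. No treated library reached the Control range. Its change in DTP was -0.45 (SE 0.17, limma adjusted p 0.0439), a call lost in 7 of 12 fits that left out 1 library, and became -0.01 with the length trend removed (limma adjusted p 0.968). In DTEP it stood below Control (log2 change -0.94, SE 0.17, limma adjusted p 0.000551), or -0.74 with the trend removed (limma adjusted p 0.000330).

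**Figure D1:**
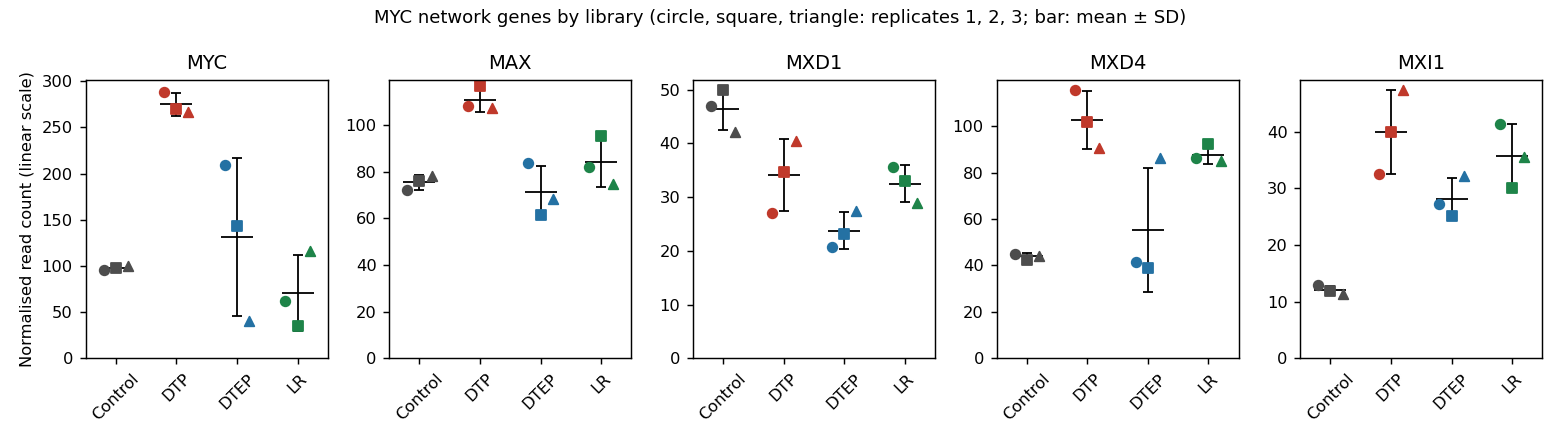
Normalised read counts (linear vertical axis) of the 5 MYC network genes in each library, by group. Symbols mark replicates 1 to 3 and bars the mean and SD (n = 3). MYC is highest in the 3 DTP libraries, and MXI1 lies above the Control libraries in all 9 treated libraries.

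Taking the 50 genes together, LR cells most often had the lowest group mean. The LR mean was the lowest of the 4 group means in 36 genes (72.0%), against 29.9% of all genes tested, and the highest in none. Among the 41 ribosome biogenesis genes LR was lowest in 33 (80.5%). By single library, however, the median log2 difference of these 41 from the Control mean was lowest in DTEP replicate 3. It was -0.95 there, against -0.79, -0.77 and -0.50 in the LR libraries. In LR against Control 24 of the 50 genes fell and 3 rose (DKC1, MXD4 and MXI1), with a median log2 change of -0.61, whereas 32.6% of all genes tested fell, 30.2% rose and their median was -0.03. Removing the length trend left 27 lower and 3 higher (median -0.58), at 33.6% and 32.6% of all genes with a known length. When the Control and LR libraries were fitted without the other groups, 38 were lower and 4 higher, at 36.8% and 34.8% of all genes. Of the 27 calls, 19 held whichever single library was left out.

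The changes at day 9 were smaller and mixed. In DTP against Control 5 genes rose and 13 fell (median -0.16), while over all genes 25.2% rose and 28.8% fell (median -0.01), so that the share of falls was near the background. One fall, that of POLR1A, exceeded a log2 change of 2, as did 3.9% of all genes in that direction. Transcript length moved with these calls. The 13 genes that fell had transcripts of 3506 to 12480 bases (median 5078), and the 32 that did not pass had a median of 2253.5 bases. With the length trend removed 5 genes fell and 5 rose (median -0.10), against 24.5% and 25.9% of all genes. The falls that then passed were PPAT, POLR1A, DDX21, WDR43 and RRN3, and the rises MXI1, MYC, MXD4, WDR74 and UBTF. With the 6 Control and DTP libraries alone, 11 were higher and 23 lower, at 35.4% and 37.6% of all genes. The part of transcript length in the remaining changes was not tested.

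**Figure D2:**
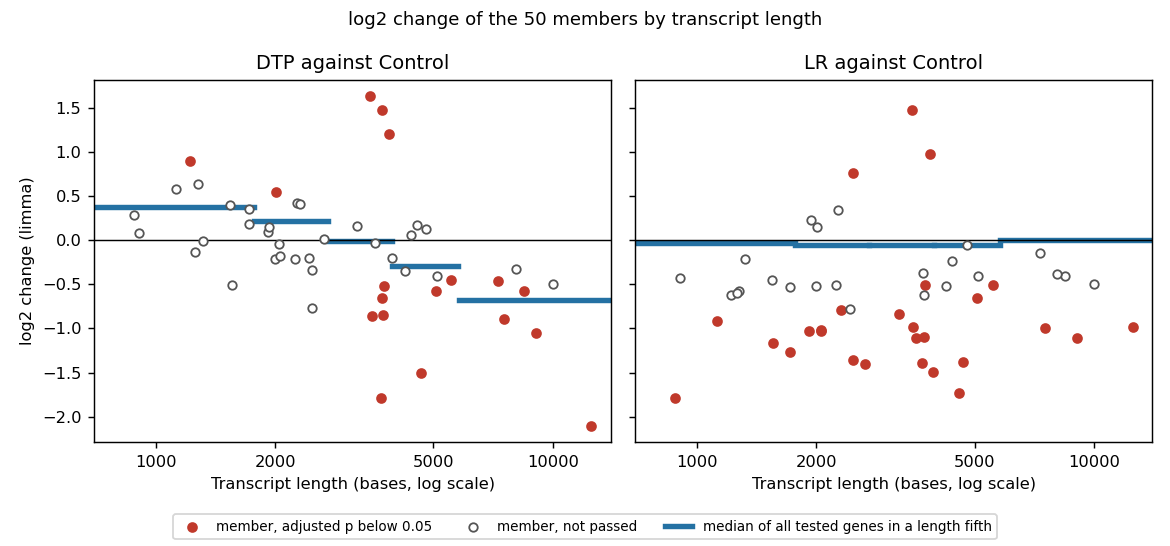
log2 change (limma) of the 50 genes against transcript length (log axis) in DTP against Control and LR against Control. Filled points passed an adjusted p of 0.05, open points did not, and blue lines are the medians of all tested genes in 5 equal groups by length. In DTP the blue lines step down from 0.38 to -0.68, and in LR they stay near 0 while most of the genes lie below them.

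Between DTP and DTEP 5 genes rose and 11 fell with all libraries (median 0.15), where 35.7% of all genes rose and 32.6% fell (median 0.08). Without DTEP replicate 3, 29 rose and 8 fell (median 0.44), against 38.2% and 33.1% of all genes. Removing the length trend as well gave 25 and 9 (median 0.29), against 37.1% and 36.2%. Against Control, DTEP cells had 4 higher and 9 lower (median -0.12), at 29.5% and 28.7% of all genes, and without DTEP replicate 3 18 higher and 9 lower (median 0.22), at 33.1% and 30.6%. From DTEP to LR, 1 gene, FBL, passed as lower and 0 as higher in limma (median -0.52, against -0.07 over all genes), where 4.31% and 3.04% of all genes passed. At an adjusted p below 0.05, edgeR on the recovered reads called 9 lower, and DESeq2 called 16 lower and 1 higher. The shares of all genes called by edgeR and DESeq2 were not counted, so these counts have no background beside them. Without DTEP replicate 3, 40 fell and 2 rose (median -0.89), at 28.1% and 19.3% of all genes, and with the length trend removed as well 43 fell and 3 rose, at 25.8% and 18.3%. Each transition shares libraries with the next, so a high DTEP library raises the first difference and lowers the following one. DTEP replicate 3 lay below both other DTEP libraries in 43 of the 50 genes (86.0%, against 47.1% of all genes), and LR replicate 3 above both other LR libraries in 39 (78%, against 35.8%).

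**Figure D3:**
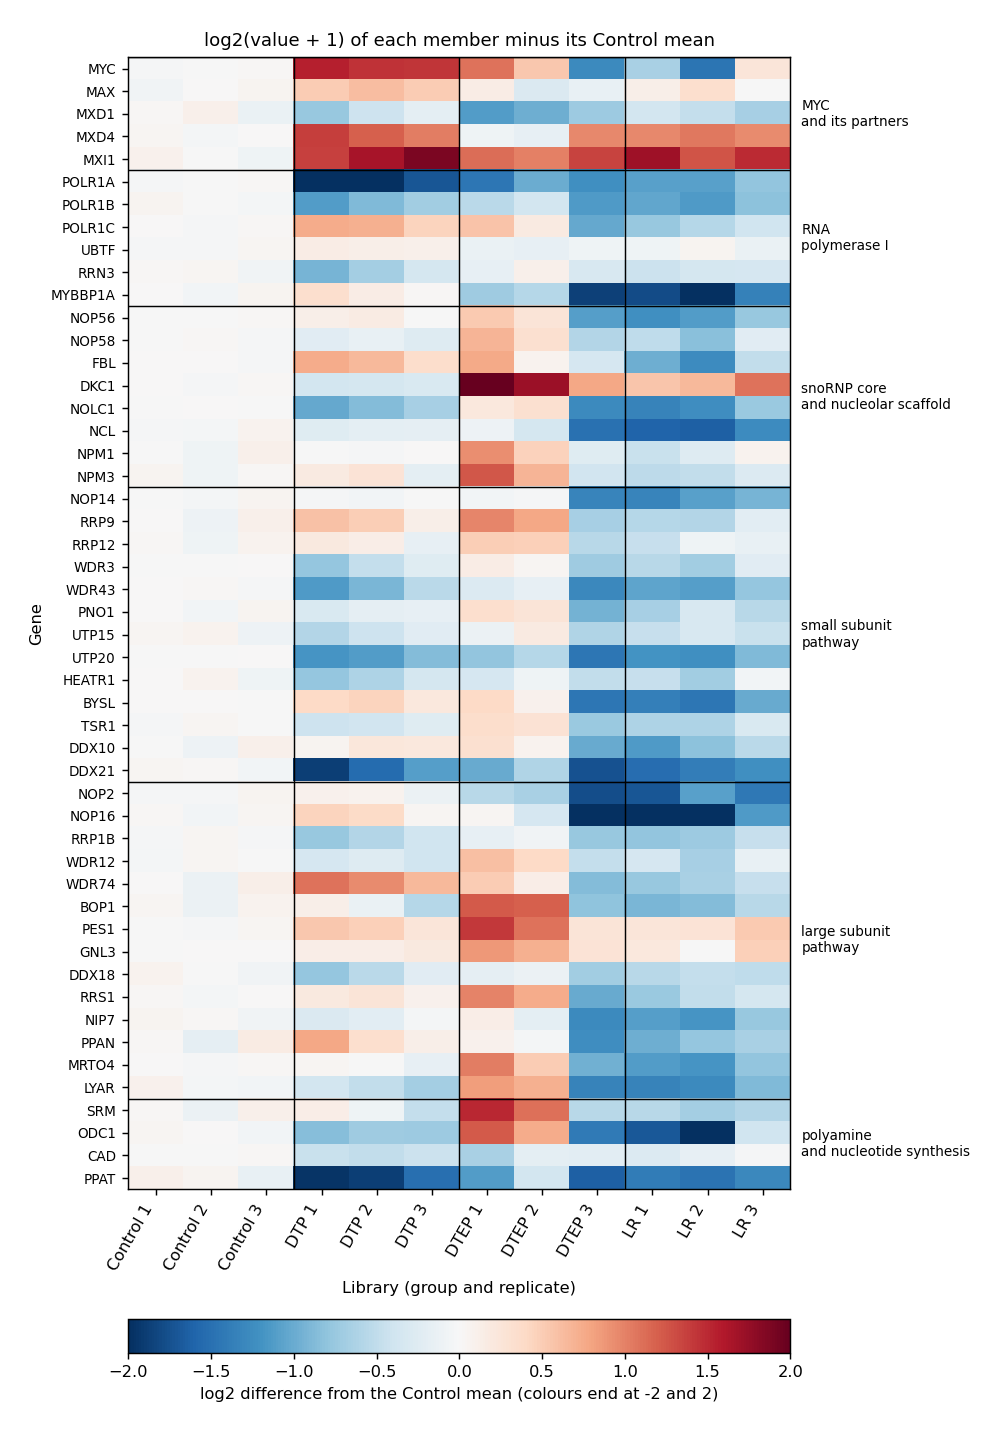
log2(value + 1) of each of the 50 genes (rows, grouped by role) in each library (columns), as the difference from the gene's Control mean. Colours end at -2 and 2. The LR columns and DTEP replicate 3 are mostly below 0, and in DTEP replicates 1 and 2 the snoRNP and scaffold genes are above 0 in 7 of 8.

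**Figure D4:**
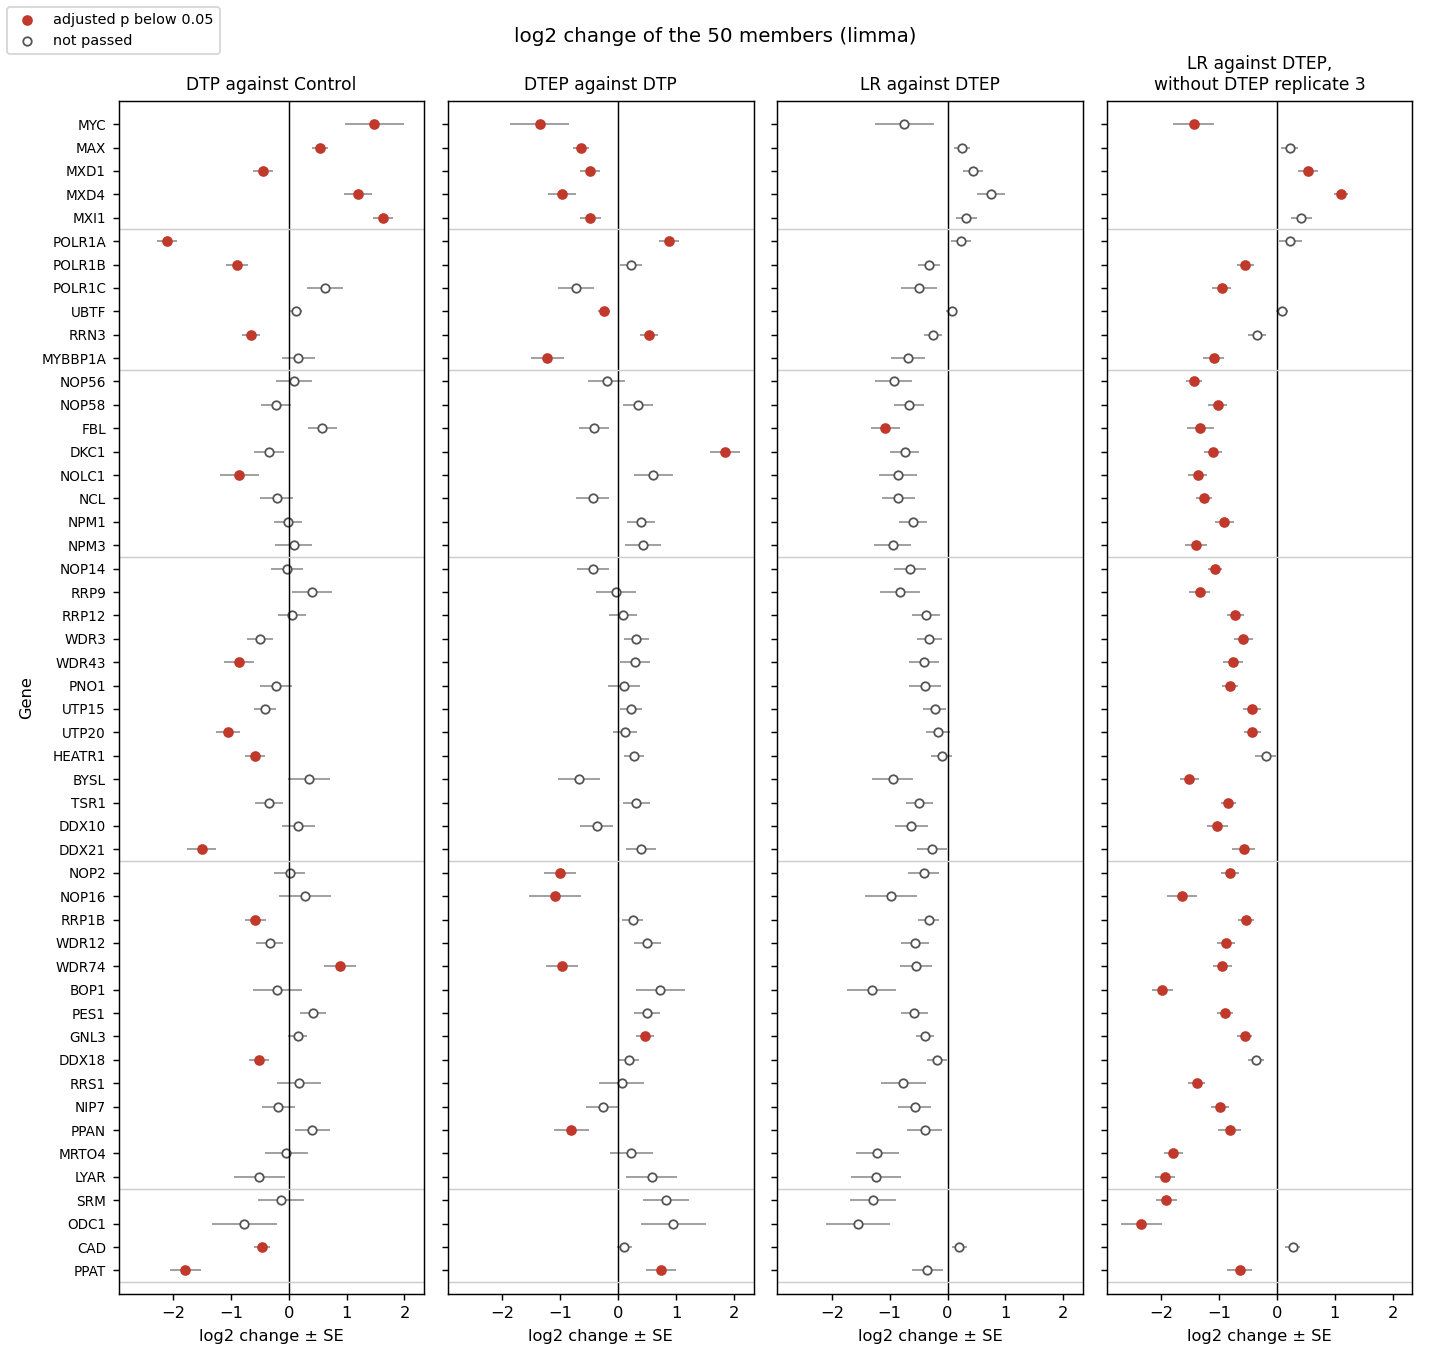
log2 change of each of the 50 genes with its SE (horizontal axis) in the 3 transitions, the last also without DTEP replicate 3. Filled points passed an adjusted p of 0.05. In LR against DTEP 1 gene is filled with all libraries and 42 are filled without DTEP replicate 3.

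Of the 6 RNA polymerase I genes 3 fell in DTP, POLR1A, POLR1B and RRN3, and 3 were lower in LR than in Control. With so few genes in each role, counts by role are descriptions beside the 28.8% of all genes that fell in DTP and the 32.6% that were lower in LR. POLR1A, which encodes the largest subunit of the enzyme (Entrez 25885, chromosome 2, 86020216 to 86105886), had 141, 144 and 146 normalised read counts in Control, 27.7, 29.1 and 43.4 in DTP, 52.0, 71.8 and 60.7 in DTEP and 67.0, 67.5 and 82.4 in LR. Every treated library was below every Control library, and DTP was the lowest group. In DTP it fell by 2.10 on the log2 scale (SE 0.18, limma adjusted p 3.66e-06), the largest fall of the 50 genes there, and rose again in DTEP by 0.88 over DTP (SE 0.18, limma adjusted p 0.000867). Its transcript is the longest of the 50, at 12480 bases, and with the length trend removed these changes were -1.23 (limma adjusted p 0.000172) and 0.38 (limma adjusted p 0.0765). Relative to Control, POLR1A still stood at -0.99 in LR (SE 0.18, limma adjusted p 0.000431).

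POLR1B, the second largest subunit, had 100.1, 95.6 and 94.1 in Control, 43.9, 52.0 and 59.3 in DTP, 66.2, 74.4 and 43.6 in DTEP and 46.3, 43.5 and 54.0 in LR. It was lower than in Control in all treated libraries, by -0.90 in DTP (SE 0.19, limma adjusted p 0.00183) and -1.001 in LR (SE 0.19, limma adjusted p 0.000593). With the length trend removed the DTP change was -0.25 (limma adjusted p 0.397) and the LR change -1.02 (limma adjusted p 0.00203). RRN3, the initiation factor that recruits the polymerase, fell by 0.66 on the log2 scale in DTP (SE 0.16, limma adjusted p 0.00371) and rose from DTP to DTEP by 0.53 (SE 0.16, limma adjusted p 0.00915). RRN3 has near-identical pseudogene copies, so that its reads may be shared with them. UBTF, which coats the ribosomal RNA genes, had 192, 191 and 199.98 in Control, 217, 210.1 and 209 in DTP, 178, 174 and 183 in DTEP and 183, 203 and 176 in LR. It was lower in DTEP than in DTP (log2 change -0.25, SE 0.10, limma adjusted p 0.0461), a call lost in 10 of 12 fits that left out 1 library (limma adjusted p up to 0.104) and in 4 of 13 other settings (adjusted p up to 0.165).

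POLR1C, a subunit shared with RNA polymerase III, had 38.1, 37.2 and 38.5 in Control, 64.1, 62.9 and 52.2 in DTP, 57.0, 43.2 and 18.1 in DTEP and 21.9, 25.2 and 28.6 in LR. The LR libraries were below and the DTP libraries above the Control libraries, but no change passed with all libraries in the limma fit. MYBBP1A, a nucleolar protein that binds MYB and represses RNA polymerase I, had 86.6, 82.2 and 88.9 in Control, 109, 95.5 and 86.8 in DTP, 52.1, 57.2 and 22.7 in DTEP and 24.2, 19.6 and 33.0 in LR. All DTEP and LR libraries were below all Control and DTP libraries. MYBBP1A fell in DTEP relative to DTP (log2 change -1.22, SE 0.29, limma adjusted p 0.00264), and in LR it stood at -1.74 relative to Control (SE 0.29, limma adjusted p 0.000250).

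The snoRNP core proteins and nucleolar scaffolds were little changed in DTP, where 1 of 8 fell (28.8% of all genes). In LR 4 of 8 were lower than in Control (32.6% of all genes). DKC1 went the other way. It encodes dyskerin, the pseudouridine synthase of the H/ACA snoRNPs and a component of telomerase (Entrez 1736, chromosome X, 154762864 to 154777689). It had 173, 169.5 and 175 normalised read counts in Control, 133, 135 and 140.1 in DTP, 707, 568 and 296 in DTEP and 254, 272 and 367 in LR. All DTEP and LR libraries were above all Control and DTP libraries. From DTP to DTEP it rose by 1.85 on the log2 scale (SE 0.26, limma adjusted p 4.54e-05), or 2.21 without DTEP replicate 3 (SE 0.15, limma adjusted p 2.66e-07), and DKC1 was the only ribosome biogenesis gene of the 41 that was higher in LR than in Control (0.76, SE 0.26, limma adjusted p 0.0205). That last call was lost in 2 of 12 fits that left out 1 library, at adjusted p up to 0.0815.

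FBL encodes fibrillarin, the methyltransferase of the C/D snoRNPs (Entrez 2091, chromosome 19, 39834458 to 39846379), and its E-box stretch is printed above. It had 169.8, 171 and 167 in Control, 284, 267 and 215 in DTP, 285, 178 and 134 in DTEP and 85.1, 70.1 and 119.8 in LR. Each LR library was below every other library. FBL was the gene that passed in LR against DTEP with all libraries (-1.08, SE 0.25, limma adjusted p 0.0312), and it was lower in LR than in Control (log2 change -0.91, SE 0.25, limma adjusted p 0.00741). The first call was lost in 8 of 12 fits that left out 1 library, at adjusted p up to 0.107. The other C/D core proteins NOP56 and NOP58 had LR against Control changes of -1.03 (limma adjusted p 0.0136) and -0.52 (limma adjusted p 0.0971).

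NCL, encoding nucleolin, with the highest counts of the 50, had 1334, 1317 and 1425 in Control, 1148, 1185 and 1199 in DTP, 1259, 1065 and 484 in DTEP and 449, 435 and 568 in LR. The LR libraries and DTEP replicate 3 were below all other libraries. The change in LR against Control was -1.497 (SE 0.28, limma adjusted p 0.000598). NOLC1, a scaffold that carries snoRNPs to the nucleolus, had 287, 291 and 288 in Control, 141, 157 and 182 in DTP, 335, 361 and 118.5 in DTEP and 114, 122 and 172 in LR. It fell in DTP (log2 change -0.85, SE 0.34, limma adjusted p 0.0484), a call lost in 8 of 12 fits that left out 1 library, and in LR against Control (log2 change -1.10, SE 0.34, limma adjusted p 0.0128). NPM1, encoding nucleophosmin, did not pass in any comparison with all libraries, and without DTEP replicate 3 was higher in DTEP than in Control by 0.70 (SE 0.17, limma adjusted p 0.00321).

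In the small subunit pathway 4 of 13 genes fell in DTP, 0 passed in DTEP against DTP and 6 were lower in LR than in Control. Over all genes 28.8% fell in DTP, a share close to 4 of 13, and 32.6% were lower in LR. From DTP to DTEP 35.7% of all genes rose and 32.6% fell. DDX21, an RNA helicase of the nucleolus (Entrez 9188, chromosome 10, 68956170 to 68985068), had the largest fall of these in DTP. It had 393, 388 and 367 normalised read counts in Control, 103, 131 and 178 in DTP, 190.1, 253 and 114 in DTEP and 132, 146 and 163 in LR. No treated library came near the Control range. DDX21 changed by -1.51 in DTP (SE 0.26, limma adjusted p 0.000469), -1.11 in DTEP (SE 0.26, limma adjusted p 0.00272) and -1.38 in LR (SE 0.26, limma adjusted p 0.000552), each against Control. With the length trend removed these were -1.18, -0.98 and -1.34, and all passed.

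UTP20, a component of the small subunit processome, had 98.1, 98.2 and 99.6 in Control, 43.2, 44.7 and 53.9 in DTP, 56.9, 65.9 and 35.4 in DTEP and 42.5, 41.5 and 53.0 in LR. It was lower in all 9 treated libraries than in Control, by -1.05 in DTP (SE 0.20, limma adjusted p 0.00102) and by -1.10 in LR (SE 0.20, limma adjusted p 0.000477). Its transcript has 9031 bases, and with the length trend removed the changes were -0.29 (limma adjusted p 0.387) and -1.16 (limma adjusted p 0.00245). HEATR1, another processome component with a long transcript, had 158, 164 and 148 in Control, 91.1, 102 and 123 in DTP, 123, 148 and 111 in DTEP and 113, 95.96 and 150.1 in LR. It fell in DTP (log2 change -0.58, SE 0.18, limma adjusted p 0.0152), a call lost in 2 of 12 fits that left out 1 library, which became 0.14 with the length trend removed (limma adjusted p 0.572), and was not lower in LR by the test (-0.41, SE 0.18, limma adjusted p 0.0595).

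The other small subunit genes that passed in LR against Control were NOP14 (-1.11), WDR43 (-0.98), BYSL and DDX10 (-0.83), the last lost in 3 of 12 fits that left out 1 library. WDR43, a processome component, had 101, 102 and 98.2 in Control, 45.2, 52.7 and 69.0 in DTP, 82.4, 89.6 and 40.6 in DTEP and 47.6, 46.0 and 58.4 in LR, and it fell already in DTP (log2 change -0.86, SE 0.26, limma adjusted p 0.0140), a call lost in 1 of those fits (adjusted p 0.0633). BYSL, encoding bystin, had 39.0, 38.6 and 38.3 in Control, 51.5, 53.2 and 44.8 in DTP, 51.5, 41.1 and 13.5 in DTEP and 14.4, 13.6 and 18.8 in LR. Its mean was highest in DTP, and it was below Control in LR and in DTEP replicate 3, with a change of -1.27 in LR against Control (SE 0.36, limma adjusted p 0.00870). When DTEP replicate 3 was left out, 9 of the 13 small subunit genes were higher in DTEP than in DTP, against 38.2% of all genes. In the same fit 12 were lower in LR than in DTEP, against 28.1% of all genes, and only HEATR1 did not pass.

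Large subunit genes were close to Control in DTP (1 of 14 higher, 2 lower, median -0.01), and 8 of 14 were lower in LR than in Control (median -0.72). Over all genes 25.2% rose and 28.8% fell in DTP, and 32.6% were lower in LR. BOP1 and PES1 act in a single complex that processes the large subunit RNA, and in LR they lay on opposite sides of Control. BOP1 had 57.3, 51.5 and 58.8 normalised read counts in Control, 60.4, 50.6 and 37.4 in DTP, 131, 128 and 31.5 in DTEP and 29.3, 30.0 and 37.6 in LR. PES1 had 91.9, 91.1 and 95.4 in Control, 135, 129 and 110.2 in DTP, 249, 198 and 112 in DTEP and 109.5, 113 and 134 in LR. Both were highest in DTEP replicates 1 and 2, but in LR all BOP1 libraries were below and all PES1 libraries above Control. Relative to Control, BOP1 changed in LR (log2 change -0.78, SE 0.42, limma adjusted p 0.127) and PES1 by 0.35 (SE 0.23, limma adjusted p 0.210), so that neither passed with all libraries. Both changes passed without DTEP replicate 3 (limma adjusted p 0.00125 and 0.0252). That library enters LR against Control only through the SE, which is pooled over all groups. Without it BOP1 was also lower in LR than in DTEP (log2 change -1.98, SE 0.18, limma adjusted p 3.45e-05). The third protein of that complex, WDR12, had an LR against Control change of -0.39 (limma adjusted p 0.171). GNL3, encoding nucleostemin, had 135, 136 and 137 in Control, 149.7, 148 and 156 in DTP, 248, 224 and 165 in DTEP and 157, 135 and 189.7 in LR. Every DTEP library was above every Control and DTP library, and GNL3 rose in DTEP by 0.46 over DTP (SE 0.16, limma adjusted p 0.0215). That call was lost in 4 of 12 fits that left out 1 library (limma adjusted p up to 0.0771) and in 2 of 13 other settings.

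The 8 genes lower in LR were NOP2, NOP16, RRP1B, DDX18, NIP7, PPAN, MRTO4 and LYAR, of which DDX18 was lost in 3 and PPAN in 5 of 12 fits that left out 1 library. NOP2, an RNA methyltransferase, had 148, 148 and 157 in Control, 161, 158 and 139 in DTP, 102, 96.4 and 43.3 in DTEP and 45.5, 70.6 and 55.3 in LR. It was level in DTP (0.01, SE 0.27, limma adjusted p 0.972) and fell from DTP to DTEP (log2 change -1.01, SE 0.27, limma adjusted p 0.00555) and in LR against Control (log2 change -1.41, SE 0.27, limma adjusted p 0.000687). NOP16, an assembly factor, had 48.7, 46.5 and 49.3 in Control, 65.6, 62.9 and 49.3 in DTP, 49.3, 38.1 and 10.2 in DTEP and 10.3, 10.46 and 21.3 in LR. Its change in LR against Control was -1.79 (SE 0.45, limma adjusted p 0.00433), the largest fall of the 50 in that comparison. The DTP levels of NOP2 and NOP16 were near or above those of Control, whereas POLR1A and DDX21 had their lowest mean in DTP.

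WDR74, which helps to release assembly factors, was the ribosome biogenesis gene that rose in DTP. It had 44.9, 41.04 and 48.2 in Control, 96.1, 87.1 and 70.2 in DTP, 63.5, 49.1 and 24.1 in DTEP and 25.9, 28.1 and 32.2 in LR. All DTP libraries were above and all LR libraries below Control. The rise was 0.89 (SE 0.28, limma adjusted p 0.0165), or 0.51 with the length trend removed (limma adjusted p 0.0407), and was lost without Control replicate 2, DTP replicate 1 or DTP replicate 2 (limma adjusted p up to 0.0654). MRTO4 had 63.8, 62.4 and 65.1 in Control, 65.5, 63.4 and 57.1 in DTP, 130.04, 91.1 and 32.2 in DTEP and 28.9, 27.5 and 36.6 in LR. LYAR, a nucleolar zinc finger protein, had 22.1, 19.9 and 19.9 in Control, 15.8, 14.3 and 12.6 in DTP, 37.5, 34.6 and 7.58 in DTEP and 7.56, 7.97 and 10.7 in LR. Both were highest in DTEP replicates 1 and 2 and near their lowest in LR, and both fell in LR against Control (-1.03, limma adjusted p 0.0277, and -1.16, limma adjusted p 0.0354), calls that were each lost in 5 of 12 fits that left out 1 library (limma adjusted p up to 0.0777 and 0.0926). PPAN, at 0.393 to 4.64 in all libraries, had the lowest counts of the 50, and its gene overlaps a readthrough locus listed at 0.

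Of the 4 enzymes, PPAT, which starts purine synthesis (Entrez 5471, chromosome 4, 56393362 to 56435615), fell most in DTP. It had 66.6, 64.4 and 55.6 normalised read counts in Control, 15.1, 16.0 and 21.2 in DTP, 27.99, 47.9 and 19.3 in DTEP and 22.8, 21.7 and 24.9 in LR. All treated libraries lay below Control. The log2 changes against Control were -1.79 in DTP (SE 0.26, limma adjusted p 0.000171), -1.04 in DTEP (SE 0.26, limma adjusted p 0.00478) and -1.39 in LR (SE 0.26, limma adjusted p 0.000619), and with the length trend removed -1.64, -1.001 and -1.35, all of which passed. CAD, which starts pyrimidine synthesis, had 192, 192 and 196 in Control, 141, 137 and 143 in DTP, 123, 168 and 166 in DTEP and 160.5, 172 and 190.3 in LR. Its fall in DTP of -0.46 (SE 0.13, limma adjusted p 0.0120) became 0.17 with the length trend removed (limma adjusted p 0.251).

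ODC1, ornithine decarboxylase, the first enzyme of polyamine synthesis, had 62.3, 61.0 and 58.2 in Control, 33.0, 36.4 and 36.1 in DTP, 143, 102 and 22.2 in DTEP and 18.04, 14.5 and 45.5 in LR. SRM, spermidine synthase, had 72.9, 65.6 and 76.3 in Control, 78.6, 67.5 and 51.3 in DTP, 206, 155 and 48.2 in DTEP and 48.4, 44.4 and 47.4 in LR. DTEP replicates 1 and 2 held the highest and DTEP replicate 3 an LR-like level of both. With all libraries neither passed in DTEP against DTP or LR against DTEP, while ODC1 was lower in LR than in Control (log2 change -1.36, SE 0.56, limma adjusted p 0.0497), a call lost in 9 of 12 fits that left out 1 library (limma adjusted p up to 0.170). Without DTEP replicate 3, ODC1 rose by 1.75 (SE 0.35, limma adjusted p 0.000929) and then fell by 2.34 (SE 0.35, limma adjusted p 0.000428), and SRM rose by 1.45 (SE 0.18, limma adjusted p 2.07e-05) and fell by 1.91 (SE 0.18, limma adjusted p 3.38e-05).

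The genes with an E-box in the window and those without one were compared by counts. In LR against Control 12 of the 18 genes with it fell and 1 rose (median log2 change -1.07), and 9 of the 24 without it fell and 2 rose (median -0.50), where 32.6% of all genes fell and 30.2% rose. In DTP against Control 4 of 18 fell and 1 rose with it (median -0.04), and 6 of 24 fell and 3 rose without it (median -0.19). Both shares of falls were near the 28.8% of all genes that fell, and 25.2% of all genes rose. The difference between the genes with and without an E-box was not tested, and these values are descriptions over genes that share libraries.

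Other genes of the pathway were read alongside, and their values in this paragraph keep the length trend. Of 113 further genes of RNA polymerase I, snoRNPs, subunit assembly and the RNA exosome, 21 rose and 17 fell in DTP against Control (median 0.09), and 20 rose and 47 fell in LR against Control (median -0.31). The shares of all genes were 25.2% higher and 28.8% lower in DTP, and 30.2% and 32.6% in LR. The small subunit genes among them had 3 higher and 18 lower of 40 in LR, the large subunit genes 4 and 22 of 40, and the exosome genes 8 and 4 of 14. Leaving out DTEP replicate 3, 79 of the 113 were lower in LR than in DTEP and 1 higher, against 28.1% and 19.3% of all genes. EIF6, which keeps the large subunit from joining too early, changed most among these large subunit genes from DTP to DTEP (-2.38, SE 0.31, limma adjusted p 2.8e-05). TAF1C and TAF1A, subunits of the RNA polymerase I selectivity factor SL1, moved in opposite directions, by 1.61 and -0.82 in DTP against Control (limma adjusted p 5.63e-06 and 0.0353) and by -1.57 and 2.24 in DTEP against DTP (limma adjusted p 1.61e-06 and 3.42e-05). Of 12 regulators of MYC stability 8 fell and 0 rose in DTP, against 28.8% and 25.2% of all genes, led by CIP2A (-3.52, SE 0.19, limma adjusted p 1.18e-07), an inhibitor of the phosphatase that acts on MYC. This count gives no direction for the stability of MYC protein, which was not measured, and the part of transcript length in it was not tested. MYCL rose in DTP (1.85, SE 0.22, limma adjusted p 3.65e-05) and MYCN fell (-1.997, SE 0.21, limma adjusted p 1.68e-05), from 4.46, 4.95 and 5.26 normalised read counts to 0.365, 0.740 and 0.346.

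The 78 cytosolic ribosomal protein genes, the structural products of the ribosome, took another course from the genes that assemble it. In DTP against Control 69 rose and 0 fell (median 0.89), where 25.2% of all genes rose, while 1 of the 41 ribosome biogenesis genes rose and 10 fell (median -0.18). In LR against Control 13 rose and 13 fell (median 0.06), against 1 and 21 of the 41 (median -0.66). Of all genes tested 30.2% rose and 32.6% fell there. Ribosomal protein transcripts are short (median 827 bases). With the length trend removed 53 rose and 3 fell in DTP (median 0.57), against 25.9% and 24.5% of all genes with a known length. In LR 27 then rose and 18 fell (median 0.11), where 32.6% and 33.6% of all such genes did, so that the share of rises was near the background. With the trend removed the falls among the 41 genes in DTP went from 10 to 4 (POLR1A, DDX21, WDR43 and RRN3) and the rises from 1 to 2 (WDR74 and UBTF), with a median of -0.13, while in LR 24 fell and 1 rose (median -0.62). By library, the median log2 difference of the 41 genes from the Control mean was -0.03, -0.14 and -0.17 in DTP, 0.32, 0.09 and -0.95 in DTEP and -0.79, -0.77 and -0.50 in LR. That of the ribosomal protein genes was 1.03, 0.97 and 0.71 in DTP, 1.18, 0.46 and 0.31 in DTEP and 0.01, -0.06 and 0.25 in LR. As a share of all normalised read counts the 41 genes made up 0.536% to 0.553% in Control and 0.490% to 0.5003% in DTP. In DTEP the share ranged from 0.307% to 0.632%, and in LR from 0.286% to 0.385%. The 7 proliferation markers, all with values of at least 1, had summed counts of 1703 to 1729 in Control against 151 to 156 in DTP. In DTEP their sums were 1678 to 2513 and in LR 518 to 1256, and their part in these results was not tested.

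**Figure D5:**
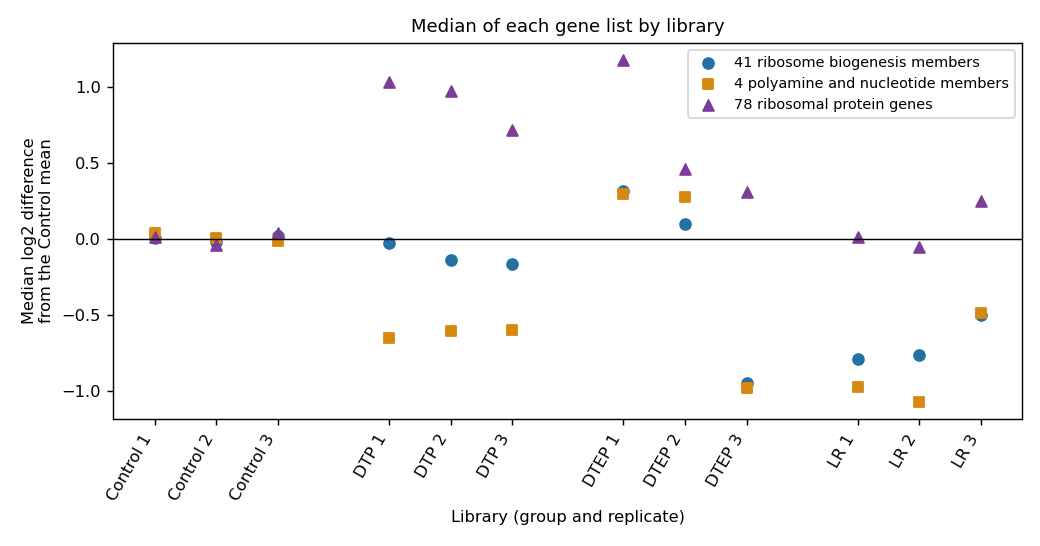
Median log2 difference from the Control mean (vertical axis) in each library for the 41 ribosome biogenesis genes, the 4 polyamine and nucleotide genes and the 78 ribosomal protein genes. In DTP the ribosomal protein genes lie between 0.71 and 1.03 and the 41 genes between -0.17 and -0.03. DTEP replicate 3 and the LR libraries are below 0 for the 41 and the 4 genes.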

How the data were processed

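The study sequenced stranded mRNA libraries of BT474 cells and mapped and counted the reads with Rsubread on hg38 and RefSeq gene models, with default settings, which ignore strand. The deposited signal values are read counts per gene that the authors normalized to library size, with no correction for gene length. Their sums per library ranged from 941482 to 1052659, so that the libraries were not scaled to equal totals. Each value was a whole multiple of what 1 read is worth (100% of values, tolerance 1e-06), so that reads were recovered. Values of at least 1 in at least 3 of 12 libraries were required. limma 3.58.1 in R 4.3.3 was fitted to log2(value + 1) of all 12 libraries with 1 mean per group and an intensity trend, with Benjamini-Hochberg adjustment over 13794 genes and a threshold of 0.05. Fold changes are on that scale and understate changes of low genes. Each SE draws on the spread within all 4 groups, also those outside a comparison. edgeR 4.0.16 and DESeq2 1.42.0 on the recovered reads, other pseudocounts, filters and scalings, a replicate block and leaving out each library were alternatives. Removing the trend with transcript length (GENCODE v44 canonical transcripts, known for 91.9% of tested genes), also without DTEP replicate 3, was added after seeing the data.

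The 50 genes and the other lists were chosen with earlier results of these data known. By the rule set, values in every library were given for the 5 MYC network genes, the 4 enzymes and, in each of the 3 transitions, the 4 other genes at each end of the log2 changes. Of each other list the passing gene at each end could be named. RRN3, NCL, BYSL, WDR43 and GNL3 were added after their values were seen. Further genes outside the rule were named with fewer values, among them NPM1, NOP56, NOP58, NOP14, DDX10, WDR12 and PPAN. On simulated data limma recovered 200 of 200 changed genes among 13392 with 10 false calls. With a simulated length effect it made 4046 false calls, and 37 with the trend removed. Same-numbered libraries did not deviate together more than others (median r -0.0439 over 18 pairs, 2 of them over 0.1). Differently numbered libraries had a median r of 0.0239 over 36 pairs, 12 of them over 0.1. The numbers were therefore not taken as pairs. The library sizes limit precision by counting error only.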

Additional observations from a re-analysis of the deposited data

How the results depend on the processing

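Counts of the 50 genes past an adjusted p of 0.05 moved with these settings. The share of all genes that passed moved as well, for falls in LR against DTEP from 4.31% to 28.1% without DTEP replicate 3. Where no share over all genes is printed for a setting, it was not counted. Such counts cannot tell a change in the 50 genes from a change in all genes. In DTP against Control, the 6 libraries alone gave 11 higher and 23 lower, and removing the length trend gave 5 lower. In DTEP against DTP, the 6 libraries gave 2 higher and 5 lower, edgeR 10 and 7, and the length trend removed 8 higher. In LR against DTEP, 0 were lower without a filter and with the 6 libraries, edgeR gave 9 lower, and DESeq2 gave 1 higher and 16 lower. In LR against Control the 6 libraries gave 38 lower. With the length trend removed and DTEP replicate 3 left out, 25 were higher in DTEP against DTP, 3 higher and 43 lower in LR against DTEP, 17 higher in DTEP against Control and 39 lower in LR against Control. Requiring an absolute log2 change above 1 left 3 higher and 4 lower in DTP against Control, 1 and 4 in DTEP against DTP, 2 and 4 in DTEP against Control and 1 higher in LR against Control, and above 2 it left 1 lower in DTP against Control and 0 elsewhere. With 1 library left out, DTP against Control had 3 to 10 higher and 7 to 19 lower, DTEP against DTP 3 to 29 and 5 to 12, LR against DTEP 0 to 2 and 0 to 40, DTEP against Control 4 to 18 higher and LR against Control 17 to 39 lower, the high ends coming mostly without DTEP replicate 3. Without it the median log2 change was -0.89 in LR against DTEP and 0.22 in DTEP against Control. The replicate block gave 5 higher and 11 lower in DTP against Control and 23 lower in LR against Control, and moved no count of the 50 genes by over 1.5 times. Rescaling by median of ratios shifted the median of all genes by -0.10 in DTEP against DTP, and the cause of the other moves was not tested.

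Over all settings 126 values of the 50 genes changed sign, and none passed both before and after. The 9 that passed after the change, in 6 genes, all came from fits without DTEP replicate 3. Leaving it out gave 0.476 for RRP9 in DTEP against DTP (limma adjusted p 0.0338) and 0.395 for NOP56 and 0.321 for TSR1 in DTEP against Control (limma adjusted p 0.0286 and 0.03995). With the length trend removed as well, DTEP against DTP was 0.457 for RRP9 and 0.288 for NOP56, DTEP against Control 0.444 for TSR1 and 0.609 for WDR3, and DTP against Control -0.332 for NPM3 (limma adjusted p 0.0333). The ninth was POLR1A, and the values of the named genes were as follows. With the length trend removed, and then also without DTEP replicate 3, DTP against Control became 0.171 and 0.171 for CAD, 0.143 and 0.142 for HEATR1, -0.137 and -0.138 for NOP16 and -0.0827 and -0.0872 for NOP2. LR against DTEP became -0.0736 and -0.138 for CAD, -0.0324 and -0.0713 for UBTF and -0.234 and -0.472 for POLR1A (the last at adjusted p 0.013), and DTEP against DTP -0.259 and -0.196 for CAD. The length trend alone gave -0.337 for UTP20, -0.163 for POLR1B and -0.160 for HEATR1 in DTEP against DTP. Median-of-ratios scaling gave 0.00476 for MRTO4 in DTP against Control and -0.000859 for CAD in DTEP against DTP, and DESeq2 0.00754 for MRTO4. With 1 library left out, DTP against Control ranged from -0.277 to 0.0270 for SRM, from -0.0236 to 0.0782 for NOP2 and from -0.0825 to 0.0159 for MRTO4. In the same way DTEP against DTP ranged from -0.0651 to 0.374 for UTP20 and from -0.186 to 0.804 for MRTO4, and LR against DTEP from -0.425 to 0.0137 for UTP20 and from -0.277 to 0.0433 for HEATR1. Over all settings, 1781 values of named genes kept direction and call, 109 came past the threshold and 103 dropped below it.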

Other observations

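Beyond the 50 genes, enzymes that make and break down polyamines moved between groups. The length trend was not removed from the values in this section. AMD1, which makes the propylamine donor for spermidine and spermine, had 174, 180.2 and 149 normalised read counts in Control, 46.1, 56.8 and 71.9 in DTP, 124, 151 and 62.1 in DTEP and 64.4, 52.1 and 66.2 in LR. SAT1, which marks polyamines for export and breakdown, had 223, 232 and 225 in Control, 508, 519 and 493 in DTP, 167, 78.7 and 58.5 in DTEP and 81.2, 60.6 and 62.5 in LR. In DTP the AMD1 libraries were all below and the SAT1 libraries all above Control, by log2 changes of -1.53 (SE 0.28, limma adjusted p 0.000693) and 1.16 (SE 0.28, limma adjusted p 0.00475). SMOX, spermine oxidase, had 13.2, 11.8 and 10.7 in DTP against 0.718, 0.165 and 0.225 in DTEP (-3.26, SE 0.17, limma adjusted p 2.15e-08). Of the 24 other polyamine and nucleotide genes, 4 were higher and 16 lower in LR than in Control (median -0.68), against 30.2% and 32.6% of all genes. ADSL, a purine synthesis enzyme, was above Control in every DTEP and LR library, and it rose in DTEP relative to DTP by 1.47 (SE 0.16, limma adjusted p 6.9e-06).

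MPHOSPH6, which works with the RNA exosome in maturing ribosomal RNA, had 35.6, 35.1 and 35.4 in Control, 42.5, 40.0 and 42.6 in DTP, 129.6, 186 and 118 in DTEP and 149.7, 116 and 117 in LR, so that DTEP and LR were both far above Control and DTP. Its rise from DTP to DTEP was 1.74 (SE 0.17, limma adjusted p 2.32e-06). In the same comparison MXD3, a MAX partner, rose by 1.58 (SE 0.32, limma adjusted p 0.000792), and MLXIPL, which pairs with the MAX-like factor MLX, fell from 9.13, 7.503 and 6.10 to 0.144, 0.247 and 0.0561 (limma adjusted p 2.84e-08).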
